A study of Mus musculus with 2 samples.

Results

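Annexins are proteins that bind membranes rich in acidic phospholipids such as phosphatidylserine when calcium rises. They share a core of repeated calcium-binding folds and differ in a short N-terminal region that binds partner proteins, several of them of the S100 family. In cells they bridge membranes during endocytosis and exocytosis, organise cortical actin and help to close tears in the plasma membrane, and some act outside the cell. The family was analysed as 10 mouse genes, Anxa1 to Anxa9 and Anxa13, each of which had exactly 1 probe set that the platform annotation assigns to that gene alone. These were 10 of 22180 genes with such a probe set, and other annexin genes were not analysed here. The family was chosen by the differences of its genes between these same 2 samples, known from earlier work on the data, so its values below are a description and nothing is tested with them.

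Gene expression was measured on an Affymetrix whole-transcript array in 2 stable lines of the mouse embryonic stem cell line Niwa, 1 sample of each. The line EWS-OCT4A-GFP carries a fusion of the RNA-binding protein EWS with OCT4A, the isoform of the POU-domain factor OCT4 that works in pluripotent cells, joined to green fluorescent protein. The control line GFP carries green fluorescent protein alone. Cells of both lines grew in embryonic stem cell medium with LIF, a cytokine that sustains self-renewal, and both received doxycycline at 1 µg/ml to lower endogenous OCT-4. The control is therefore also a line with OCT4 lowered, and no sample without doxycycline was analysed here. The sources used here do not state whether each line is a single clone or a pool, or how long doxycycline was applied. The comparison concerns the genes that differ between the fusion line and the control line when endogenous OCT4 is lowered. With 1 sample of each line, the fusion cannot be told apart from other differences between the lines. The words "with the fusion" below therefore mean in the fusion line. The design text speaks of duplicates, but each line has 1 column of values, so there is no replicate error, no test and no p-value for any difference. The number of arrays limits the precision.

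Values are RMA summaries on the log2 scale, and differences are given as EWS-OCT4A-GFP minus GFP. A gene is described as lower or higher when the difference reached 2-fold (a log2 value of 1) and the larger of its 2 values reached 4.10. That floor is the median over the values of both arrays. Median values were 4.11 in EWS-OCT4A-GFP and 4.08 in GFP, and the 2 samples correlated with r = 0.935 over 33793 probe sets, which are not independent. How far a value lies above background is unknown. Probe sets differ in how brightly they read, so the levels of single genes are not ranked against each other. Counts against a percentile, family medians and summed levels below carry that limit.

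Most annexin genes read lower with the fusion than in the control. Of the 10 genes, 9 had a difference below 0, 7 were at least 2-fold lower, 5 were at least 8-fold lower, and none was 2-fold higher. Among the 13516 genes at or above the floor, 11.9% were at least 2-fold lower, 1.21% at least 8-fold lower, 9.31% at least 2-fold higher, and 47.5% had a difference below 0. The median difference of the annexin genes was -2.96, against 0.03 over all genes at or above the floor, 95% of which lay between -2.30 and 1.80. The annexin values ran from 3.18 to 6.21 with a median of 4.42 in EWS-OCT4A-GFP, and from 4.004 to 9.88 with a median of 7.80 in GFP. Counted against the 75th percentile of all values, 5.80, 3 of the 10 genes lay above it in EWS-OCT4A-GFP and 8 in GFP. RNA came from whole cultures, so fewer cells that express a gene and less RNA per cell cannot be told apart.

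**Figure D1:**
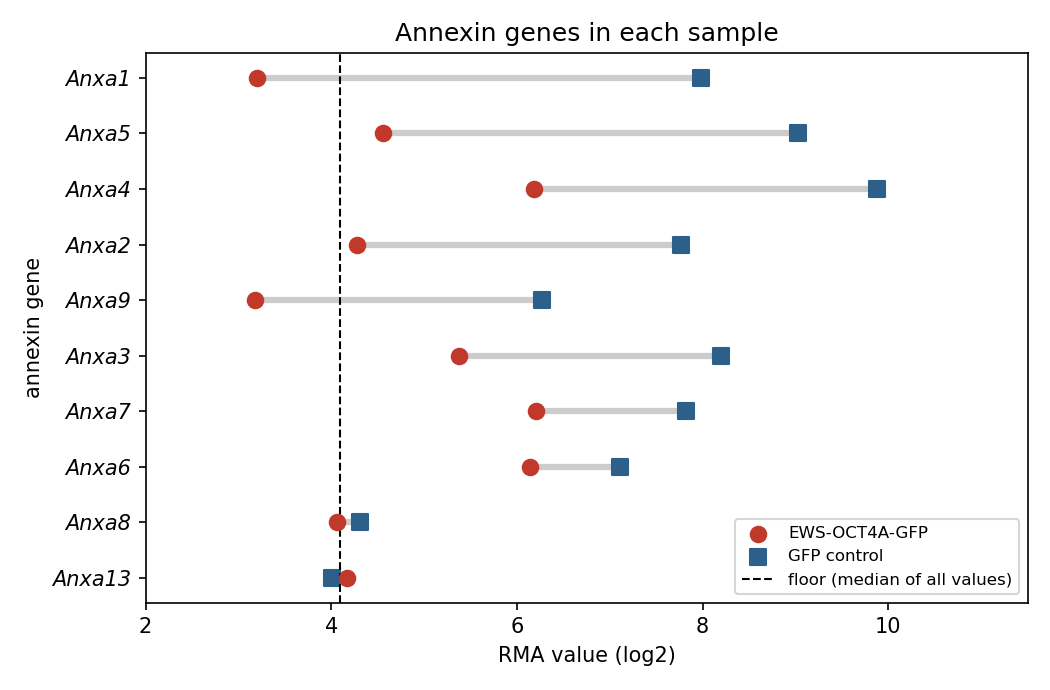
RMA values (log2, horizontal axis) of the 10 annexin genes (vertical axis) in the EWS-OCT4A-GFP sample (circles) and the GFP control (squares), 1 sample each, ordered by difference; the dashed line is the floor of 4.10. The circle lies left of the square for 9 genes, and only Anxa13 has them the other way round, at 4.17 and 4.004.

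Anxa1 encodes a secreted and cytoplasmic annexin whose N-terminal peptide acts on formyl peptide receptors and restrains inflammation. It read 3.20 in EWS-OCT4A-GFP and 7.99 in GFP, a difference of -4.79, which placed it 25th from the lowest of 13516 genes. The EWS-OCT4A-GFP value was under the floor. With that value raised to the floor the difference was 14.8-fold, compared with 27.6-fold as deposited. Its receptor gene Fpr2 read 2.44 in EWS-OCT4A-GFP and 2.12 in GFP, both under the floor, and the other receptor genes listed, Fpr1 and Fpr3, were not analysed here.

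Anxa5 encodes the annexin used in the laboratory to stain phosphatidylserine on dying cells, and in the placenta its protein covers the trophoblast surface and limits coagulation there. It read 4.56 in EWS-OCT4A-GFP and 9.03 in GFP. The difference of -4.47, or 22.1-fold, had both values above the floor and ranked 41st from the lowest.

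Anxa4 encodes an annexin of epithelial cells that binds secretory and apical membranes. Its values were 6.19 in EWS-OCT4A-GFP and 9.88 in GFP, a difference of -3.70 or 13.0-fold. In the fusion sample it still read above the 75th percentile of all values. Anxa2 encodes the annexin that pairs with S100A10 into a tetramer at the cell surface and beneath the membrane. It read 4.27 in EWS-OCT4A-GFP, near the floor, and 7.77 in GFP, a difference of -3.50 or 11.3-fold.

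Anxa9 encodes an annexin whose core has lost the residues that bind calcium in the other members, as known from the human protein. It read 3.18 in EWS-OCT4A-GFP and 6.27 in GFP, a difference of -3.09. The EWS-OCT4A-GFP value lay under the floor, and against the floor the difference was 4.52-fold in place of 8.54-fold. Anxa3 encodes an annexin known from neutrophil granules and endothelial cells. It gave 5.37 in EWS-OCT4A-GFP and 8.20 in GFP, a difference of -2.83 or 7.09-fold.

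Anxa7 and Anxa6 differed less. Anxa7, or synexin, has a long hydrophobic N-terminal region and takes part in granule fusion. It read 6.21 in EWS-OCT4A-GFP and 7.83 in GFP, a difference of -1.62 or 3.08-fold. Anxa6, whose core is duplicated and which acts in endosomal and cholesterol traffic, read 6.14 in EWS-OCT4A-GFP and 7.11 in GFP. Its difference of -0.97 missed the 2-fold mark, and it passed that mark, at -1.06, when differences were centred by loess on the mean level. In EWS-OCT4A-GFP both genes read above the 75th percentile of all values, as Anxa4 did.

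Anxa8 and Anxa13 lay near the floor in both samples. Anxa8, an annexin of stratified and other epithelia, read 4.06 in EWS-OCT4A-GFP and 4.31 in GFP, a difference of -0.25. Anxa13, an annexin of the intestine, read 4.17 in EWS-OCT4A-GFP and 4.004 in GFP, a difference of 0.17. RMA compresses differences at such levels, so these values do not show equal transcript levels. All 10 genes passed the floor by their larger value, but Anxa1, Anxa8 and Anxa9 did so only through GFP and Anxa13 only through EWS-OCT4A-GFP.

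**Figure D2:**
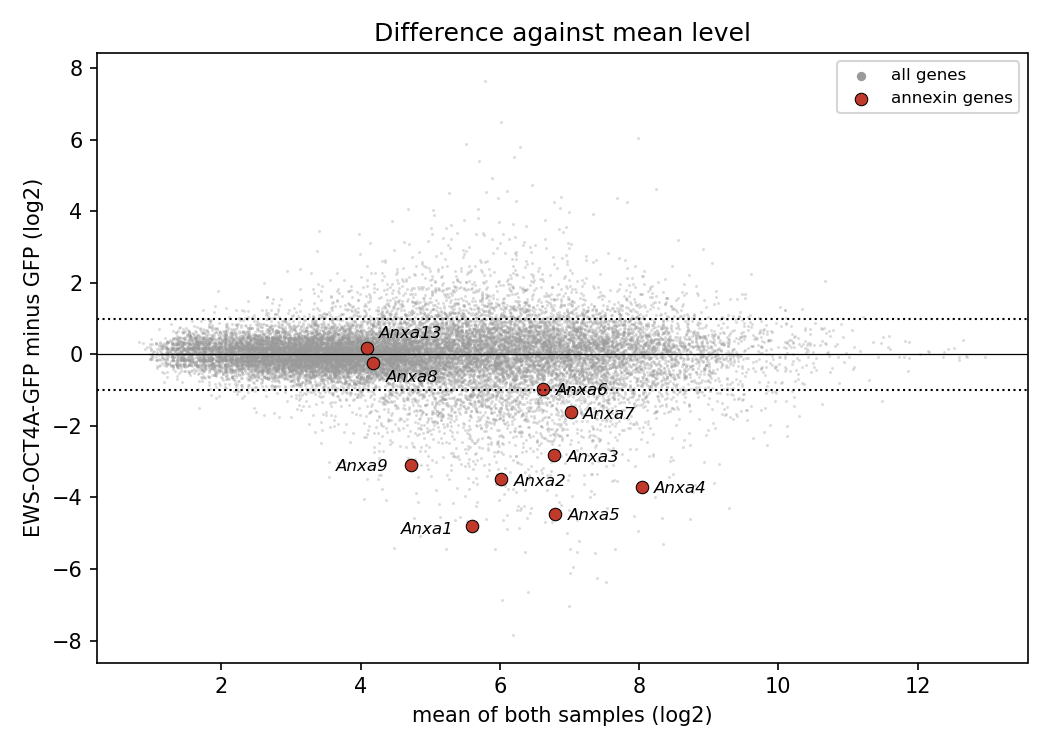
Difference (EWS-OCT4A-GFP minus GFP, log2, vertical axis) against the mean of both samples (log2, horizontal axis) for 22180 genes (grey) and the 10 annexin genes (red, named); dotted lines mark 2-fold and the solid line 0. Anxa1, at -4.79, lies lowest of the family, and Anxa8 and Anxa13 lie within 2-fold in the band of genes near the floor.

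The promoters of 7 of the 10 genes were in the RefSeq promoter table (build GRCm38.p6). The 250 bases before the annotated start are shown for Anxa1, Anxa2 and Anxa5, 3 of the 4 genes with the largest differences, and for Anxa8, which read near the floor in both samples. Letters run 5′ to 3′ on the gene's strand, and capitals mark matches to the motifs named after them.
Anxa1 promoter (chr19:20390672-20390921, minus strand): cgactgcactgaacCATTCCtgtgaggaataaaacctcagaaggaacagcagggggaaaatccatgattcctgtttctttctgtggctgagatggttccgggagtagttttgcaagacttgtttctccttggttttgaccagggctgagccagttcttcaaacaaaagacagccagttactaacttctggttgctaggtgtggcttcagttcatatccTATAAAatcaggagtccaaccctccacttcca
Anxa2 promoter (chr9:69453433-69453682, plus strand): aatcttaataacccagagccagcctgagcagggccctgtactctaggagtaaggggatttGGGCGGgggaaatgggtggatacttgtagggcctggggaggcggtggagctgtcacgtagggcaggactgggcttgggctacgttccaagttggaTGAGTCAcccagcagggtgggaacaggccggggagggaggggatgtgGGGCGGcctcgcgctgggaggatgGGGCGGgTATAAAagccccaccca
Anxa5 promoter (chr3:36475888-36476137, minus strand): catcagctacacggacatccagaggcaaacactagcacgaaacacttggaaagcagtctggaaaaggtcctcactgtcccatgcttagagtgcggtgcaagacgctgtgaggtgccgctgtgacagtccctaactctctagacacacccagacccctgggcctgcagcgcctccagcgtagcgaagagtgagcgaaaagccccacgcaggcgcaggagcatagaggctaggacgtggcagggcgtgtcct
Anxa8 promoter (chr14:34085729-34085978, plus strand): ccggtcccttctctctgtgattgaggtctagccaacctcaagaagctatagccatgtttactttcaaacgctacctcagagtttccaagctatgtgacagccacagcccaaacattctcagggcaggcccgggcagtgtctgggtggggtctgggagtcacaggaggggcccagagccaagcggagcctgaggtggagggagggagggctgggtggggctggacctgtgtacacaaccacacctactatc

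The motifs searched on both strands were the octamer bound by OCT4 (ATGCAAAT), and the sites of AP-1 (TGANTCA), TEAD (GGAATG), AP-2 (GCCNNNGGC), GATA factors (AGATAA) and ETS factors (CCGGAAG), together with the TATA box (TATAAA) and the GC box (GGGCGG). Some of the 7 genes have more than 1 annotated start, which gave 10 annexin windows among 32841 windows of the same length. The octamer was in 0 of the 10 annexin windows and in 1.6% of all windows, and the ETS motif in 0 and 6.91%. Anxa1 held a TATA box 32 bases before its start and a TEAD match at 236 bases. Anxa2 held an AP-1 match at 95 bases, a TATA box at 17 bases and GC boxes at 190, 48 and 24 bases. Among all windows, 12.4% held the TATA box, 12.6% the TEAD motif, 6.75% the AP-1 motif and 32.7% the GC box. Anxa7 held GC boxes before both of its starts, but the 2 windows overlap. The match 8 bases before 1 start is the same site as that 200 bases before the other. An AP-2 match, present in 13.7% of all windows, lay before Anxa4 and Anxa9, and a GATA match, present in 9.99%, before the other start of Anxa4. Anxa5 and Anxa8 held none of the 8 motifs. Matches did not overlap in the windows printed, and no motif was shared by all of the lower genes in these windows. A match describes letters, not binding, and no match says only that these letters are not in the window.

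The annexin genes lie on 8 chromosomes, with differences of the genes beside them given here as a description. The nearest measured protein-coding gene on each side was taken from the RefSeq gene order, a comparison chosen after the annexin values were seen. Of the 14 neighbours of the 7 lower annexin genes, 1 was at least 2-fold lower and none was 2-fold higher, with 11 of the 14 at or above the floor. Over all genes at or above the floor 11.9% were lower and 9.31% higher, so nothing particular to the neighbours is read from their count. Their median difference was -0.28. The lower neighbour was Cers2, a ceramide synthase gene beside Anxa9, with 6.72 in EWS-OCT4A-GFP and 8.85 in GFP, a difference of -2.12. Beside Anxa2, Ice2 differed by 0.70 and Foxb1 by -0.53. The neighbours of Anxa4 were Gmcl1 at 0.56 and Aak1 at -0.69. Both neighbours of Anxa5, Qrfpr and 1810062G17Rik, read under the floor in both samples.

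**Figure D3:**
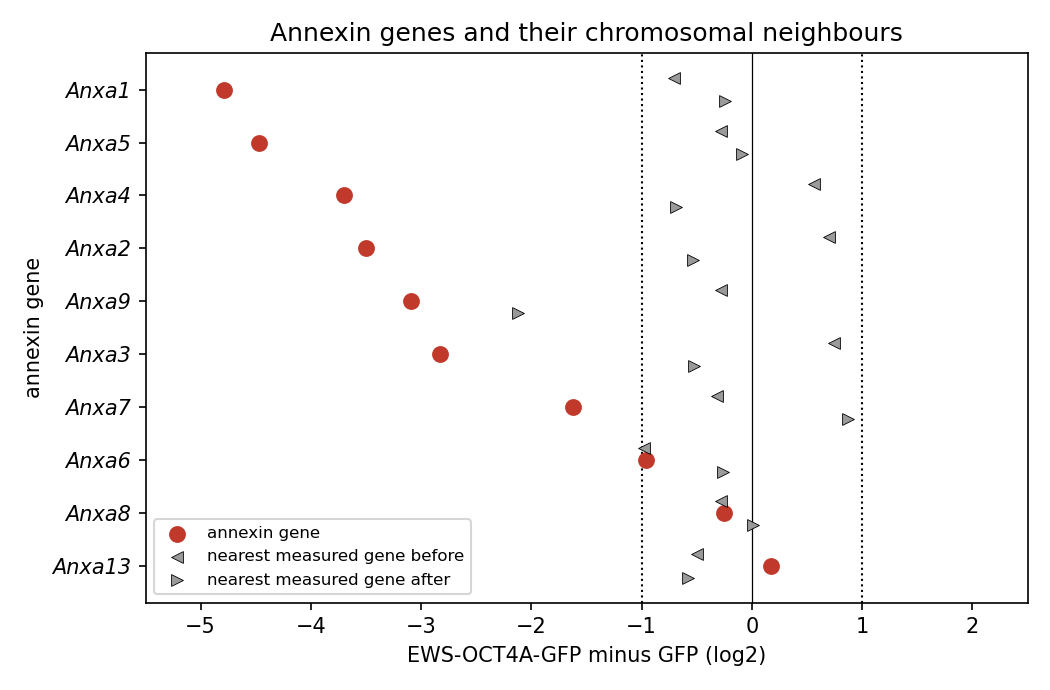
Difference (EWS-OCT4A-GFP minus GFP, log2, horizontal axis) of each annexin gene (red circles) and of the nearest measured protein-coding gene before and after it on the chromosome (grey triangles); dotted lines mark 2-fold. Of the 20 triangles only Cers2, beside Anxa9, lies beyond 2-fold, at -2.12.

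Transcripts of some genes whose proteins bind annexins were also lower. The list of annexin partners held 9 genes, not all of which encode calcium-binding proteins. Of the 9, 4 were at least 2-fold lower and 0 higher, with a median difference of -0.98. Of the 9, 7 were at or above the floor, with a median of -1.25. Of all genes at or above the floor, 11.9% were lower and 9.31% higher, here and for the lists that follow. List counts and medians are over all measured genes unless the floor is named, and a gene under the floor in both samples cannot be called. Sri encodes sorcin, a calcium sensor that binds annexin A7. It read 6.22 in EWS-OCT4A-GFP and 8.51 in GFP, a difference of -2.29. Ahnak, a large scaffold held at the membrane by annexin A2 and S100A10, read 6.04 in EWS-OCT4A-GFP and 7.84 in GFP, a difference of -1.79. S100a11, a partner of annexin A1, read 8.86 in EWS-OCT4A-GFP and 10.1 in GFP, and S100a1 read 4.15 in EWS-OCT4A-GFP and 5.43 in GFP. The partner of annexin A2 itself, S100a10, differed less than Anxa2, with 7.41 in EWS-OCT4A-GFP and 8.39 in GFP. Its difference of -0.98 missed the 2-fold mark, and passed it under median centring (-1.01) and loess centring (-1.07). S100a6 differed by 0.45 and Pdcd6, which encodes the calcium sensor ALG-2, by -0.43. S100a4 and S100b read under the floor in both samples.

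The annexin A2 and S100A10 tetramer binds plasminogen and its activator at the cell surface. Of 6 measured genes of plasminogen activation, 2 were at least 2-fold lower and 0 higher, with a median difference of -0.33. Of the 6, 4 were at or above the floor, with a median of -0.82. Nothing particular to this list is read from so small a count. Plat, the gene of tissue plasminogen activator, read 4.29 in EWS-OCT4A-GFP and 8.60 in GFP. Its difference of -4.30 was close in size to those of Anxa1 and Anxa5. Plaur, the gene of the urokinase receptor, read 5.41 in EWS-OCT4A-GFP and 6.77 in GFP, a difference of -1.36. Urokinase itself, Plau, read 4.94 in both samples, and the plasminogen receptor gene Plgrkt differed by -0.29.

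Genes of plasma membrane repair, a process in which several annexins seal the wound edge, included 8 of 16 at least 2-fold lower and 0 higher, with a median of -0.98. Of the 16, 13 were at or above the floor, with a median of -1.31. The acid sphingomyelinase gene Smpd1 read 5.10 in EWS-OCT4A-GFP and 8.37 in GFP, a difference of -3.27. Dysf and Myof encode the ferlins dysferlin and myoferlin, which bring vesicles to the wound. Dysf read 3.93 in EWS-OCT4A-GFP, under the floor, and 6.81 in GFP, and Myof read 6.25 in EWS-OCT4A-GFP and 8.93 in GFP. The calpain gene Capn2 differed by -2.10. The caveolar genes of the list, Cav1, Cav2, Cavin1 and Cavin2, were not among the lower ones, and Cav1, Cav2 and Cavin2 read under the floor in both samples.

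Other proteins that bind calcium and phospholipids, among them copines, extended synaptotagmins and synaptotagmin-like proteins, mostly stayed within 2-fold. Of 20 measured genes, 0 were at least 2-fold lower and 1 was higher, with a median of -0.06. Of the 20, 16 were at or above the floor, with a median of -0.17. Most of the 20 read under the 75th percentile of all values, 5.80, in both samples. RMA compresses differences at low levels, so their small differences do not show equal transcript levels. The 1 gene was the copine gene Cpne5, with 5.35 in EWS-OCT4A-GFP and 4.13 in GFP. The lipid-transfer proteins Esyt1 and Esyt2 of membrane contact sites differed by -0.43 and -0.70, and the protein kinase C gene Prkca by -0.88.

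Genes that expose or clear phosphatidylserine, the lipid annexin A5 binds, had 3 of 20 at least 2-fold lower and 1 higher, with a median of -0.11. Of the 20, 15 were at or above the floor, with a median of -0.23. Over all genes at or above the floor 11.9% were lower and 9.31% higher. Nothing particular to the list is read from counts this small. The flippase gene Atp11a read 6.96 in EWS-OCT4A-GFP and 9.93 in GFP, a difference of -2.98. Ano6, which encodes a calcium-activated scramblase, differed by -1.61, and Mertk, a receptor for dying cells, by -1.74. The bridging ligand gene Gas6 read 4.58 in EWS-OCT4A-GFP and 3.51 in GFP, so its 2-fold size rests on a value under the floor.

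**Figure D4:**
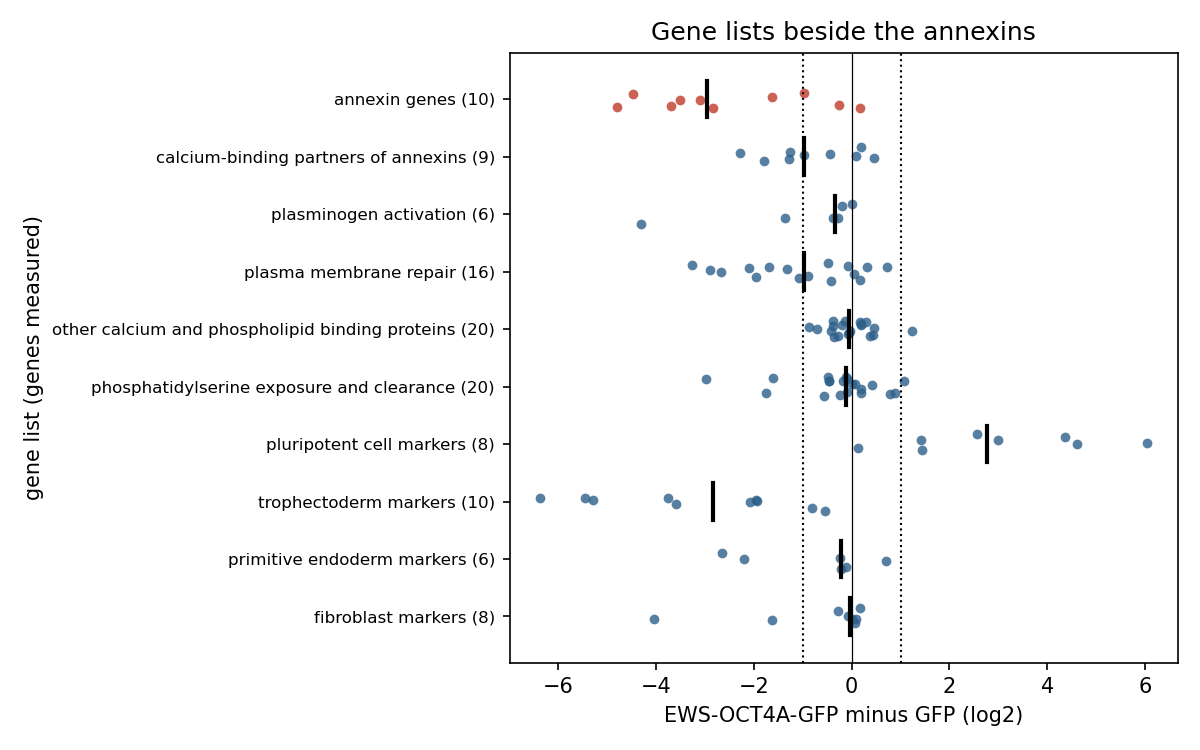
Difference (EWS-OCT4A-GFP minus GFP, log2, horizontal axis) of each measured gene of the annexin family (red) and of 9 other gene lists (blue); black bars are medians and dotted lines mark 2-fold. The annexin median is -2.96. That of the trophectoderm markers is -2.82, and was -2.06 when probe sets of a gene were averaged. The other lists of annexin-related function lie between -0.98 and -0.06. The list labelled calcium-binding partners is that of annexin partners, not all of them calcium-binding.

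Among the cell type markers, most of trophectoderm read lower with the fusion, as most annexin genes did, and most of pluripotent cells read higher. Of 10 trophectoderm markers, genes of the lineage that forms the placenta and that embryonic stem cells enter when OCT4 is lost, 8 were at least 2-fold lower and 0 higher. Their summed level on the linear scale was 334 in EWS-OCT4A-GFP and 5590 in GFP. Such sums, here and for the marker lists that follow, mostly reflect the brightest probe sets, in GFP here those of Krt8 and Krt18. Krt18 differed by -6.37, Gata2 by -5.45, Krt8 by -5.29 and Tfap2a by -3.76. Where a gene has several probe sets, these are values of the one with the highest mean. With probe sets of a gene averaged, 8 markers were still lower, but the list median moved from -2.82 to -2.06. Some of the marker differences therefore depend on the probe set. Cdx2 at -0.55 and Elf5 at -0.81 stayed within 2-fold, and Elf5 read under the floor in EWS-OCT4A-GFP. Tfap2a read 2.43 in EWS-OCT4A-GFP, under the floor, and against the floor was 4.26-fold lower in place of 13.6-fold. Of 8 pluripotent cell markers, 7 were at least 2-fold higher and 0 lower, beside 9.31% higher over all genes at or above the floor. Their summed levels were 6130 in EWS-OCT4A-GFP and 482 in GFP. Tdgf1 differed by 6.04, Nanog by 4.61, Sox2 by 4.37 and Esrrb by 2.99. The remaining one, Pou5f1, read 5.37 in EWS-OCT4A-GFP and 5.24 in GFP, and the sources used here do not state whether its probe set detects the fusion transcript. The keratin genes Krt8 and Krt18, markers of trophectoderm and not of the labelled embryonic stem cell, read 5.70 and 4.35 in EWS-OCT4A-GFP and 10.99 and 10.7 in GFP.

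Markers of primitive endoderm included 2 of 6 at least 2-fold lower and 0 higher, with summed levels of 123 in EWS-OCT4A-GFP and 268 in GFP. Of the 6, 5 were at or above the floor, and nothing particular to this list is read from so small a count. Dab2 differed by -2.65 and Gata6 by -2.21, whereas Sox7 differed by 0.71 and Foxa2 by -0.21. Gata6 read 3.79 in EWS-OCT4A-GFP, under the floor, and against the floor was 3.73-fold lower in place of 4.62-fold. The list of fibroblast genes, a check for feeder cells, had 2 of 8 at least 2-fold lower and 0 higher, with a median difference of -0.04 and sums of 145 in EWS-OCT4A-GFP and 281 in GFP. Of the 8, 6 were at or above the floor. The share lower over all genes at or above the floor was 11.9%, and nothing is read from a count this small. Those 2 were Acta2 at -1.64 and Postn at -4.04, which read 2.03 in EWS-OCT4A-GFP, under the floor, and was 3.91-fold lower against the floor in place of 16.4-fold, while Thy1 differed by 0.10 and Col3a1 by -0.28. The scale has no 0 and no detection call, so no marker can be said to be absent. The part of these cell types in the annexin differences was not tested.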

How the data were processed

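Transcript levels were measured in 2 samples, 1 per line, from 300 ng of total RNA each. The authors deposited log2 values, RMA summaries from Affymetrix Expression Console 1.1 per the submitters' processing notes. RMA corrects background, quantile-normalizes arrays and summarises probes, so a shift of most transcripts would not be visible. The table does not state the log base, which was taken as log2 because values ran from 0.618 to 13.0. Of 33793 probe sets, 23521 had 1 gene symbol in the platform annotation, 1814 several and 8458 none. All 10 annexin symbols matched RefSeq (GRCm38.p6) by gene ID. The probe set with the highest mean stood for each of 1082 genes with several. Array coordinates are not reported, since the sources used here do not give the array's build.

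Differences, counts and medians were computed with Python 3.11.15, numpy 2.4.6, pandas 2.3.3 and statsmodels 0.14.6, and the procedure was tested on simulated data. The members and the 10 gene lists (113 entries, 104 measured, written from general knowledge) were chosen with earlier results of these data known. Named were all annexin genes, all genes of the list of annexin partners, and up to 4 members of each other list with the largest absolute difference at or above the floor. Chromosomal neighbours, Fpr2, the caveolar genes, Cdx2, Elf5 and Pou5f1 were named with their values in view. Other settings tried were the fold size, the floor, the scaling and the treatment of genes with several probe sets.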

Additional observations from a re-analysis of the deposited data

How the results depend on the processing

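No paired analysis was possible because there is 1 sample of each line, and for the same reason no sample was left out. The count of annexin genes at least 2-fold lower was 7 under 7 of the 9 alternatives, and 8 with a 1.5-fold size and with loess centring (Anxa6 at -1.06). None was higher under any alternative. Averaging probe sets could not change these counts, since each annexin gene has 1 probe set. Removing the floor could not change them either, since all 10 genes already passed it. Nor could raising it to the 75th percentile or to 6, since the 7 lower genes read 6.27 or more in GFP. The median difference of -2.96 became -3.30 with the floor at the 75th percentile or at a log2 value of 6, which by construction left out Anxa8 and Anxa13. All 40 recomputed member differences kept their sign and moved by at most 0.098. Those recomputed by averaging probe sets were fixed in advance, and median centring moves every gene by the same amount. Only quantile normalization and loess centring could change members unequally. Counted over all probe sets, 1936 read at least 2-fold lower. That number was 3453 for a 1.5-fold size and 937 for a 3-fold size. The 1696 at least 2-fold higher were 3784 for 1.5-fold, 611 for 3-fold and 1126 when the floor was a log2 value of 6. Alternatives for the other lists were chosen after seeing the data. All 36 recomputed list medians kept their sign, the largest move being that of the trophectoderm markers to -2.06 when probe sets of a gene were averaged. Of 162 recomputed list counts, 150 stayed within 1.5 times. Signal over background is unknown, which limits what the low values of Anxa1, Anxa8, Anxa9 and Anxa13 can show.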
